A study of Rattus norvegicus with 18 samples.

Results

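In the mesenteric resistance perivascular adipose tissue (MRPVAT) of male Dahl S rats, 95 gene IDs were lower after 24 weeks on a high-fat diet (HFD) vs. a control diet (CD). They were chosen by their own values in the males, from 14265 gene IDs that had at least 0.5 FPKM (fragments scaled by gene length and library size) in 3 or more of the 9 males. On the log2(FPKM + 0.5) scale, the mean of the 4 HFD males had to lie at least 0.7 below the mean of the 5 CD males. The highest HFD male also had to lie below the lowest CD male. The table held 32883 gene IDs, so the members were 0.666% of those that passed the filter, and 1335 gene IDs met the mirrored criteria for higher levels on the HFD. The values of the males therefore describe the members and were not tested. The females took no part in the choice, and the HFD was compared with the CD in them.

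Each library held the MRPVAT of 1 rat kept on its diet from weaning. The 18 animals were 4 HFD males, 5 CD males, 5 HFD females and 4 CD females of the same salt-sensitive strain. The study describes 5 sequenced animals per group, so the HFD males and the CD females are incomplete here. What the missing animals would change in the rule or in the female comparison was not tested. Animals are named by their codes, in which G is a group number, M or F the sex, and HF or C the diet. The sex or treatment tag of 13 of the 18 animals goes against both title and code, and the groups used here are those of the titles. The titles of G73FHF3 and G75FC5 give the other female group number than their codes, 75 and 73. Males came from groups 74 and 76 and females from groups 73 and 75, so that the sexes and the group numbers cannot be told apart.

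MRPVAT is a white-type fat around the small mesenteric arteries, and it releases factors that act on the tone of the vessels beside it. Its adipocytes take up glucose and fatty acids and store them as triglyceride between meals, and a diet rich in fat is known to lower the synthesis of new fatty acids in white fat. Fat depots also hold stromal, vascular, mesothelial and immune cells, whose shares of the RNA can differ between animals. The table carries Ensembl gene IDs without symbols, and the RefSeq tables used here (assembly GRCr8) pair none of them with a name. For this reason 2 members are given by ID and the others by their rank or level. Gene functions, the markers of fat and other cell types, and promoter sequences were not analysed here.

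Several libraries stood apart. The study excluded the HFD females G73FHF3 and G75FHF5 as outliers, which left 3 HFD females. Both had been named outliers from the study's principal component analysis. By the comments in the study's R code, the female diet comparison was then run with and without G73FHF3. G73FHF3 was dropped on the number of DEGs found. The choice of the 3 kept HFD females was therefore not independent of that comparison, and its results are also given with G73FHF3. G75FHF5 was also the shallowest library, with 14542054 reads in genes, and the other 17 had 22039143 to 55148134. The fewest gene IDs at 0.5 FPKM or more were found in the CD animals G75FC5 (11865), G75FC4 (12798) and G76MC3 (13004), and the other 15 libraries had 13242 to 14733. For the members described singly, the values of the excluded females are given after those of the kept animals.

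In the males, the log2 differences of the members ranged between -1.84 and -0.70 with a median of -0.82, which is 0.566 times the CD level. For all 14265 gene IDs the median was 0.01. A difference of -1 or below was seen in 19 members, and 42 members lay between -0.8 and the limit of -0.7. The members just inside the limit had differences of -0.702, -0.703 and -0.703, and the nearest gene IDs outside it had -0.698, -0.697 and -0.694, so the list has no gap at its limit. Without G74MHF2, 307 gene IDs met the rule, without G74MC4 168 and without G74MC5 155. In a bulk library, fewer cells of a type and less RNA per cell cannot be told apart.

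By the rule every member had to be lower on the HFD within each male group number, so only the size of the difference could vary. The sizes were unequal. In group 76 (2 HFD and 3 CD males) the median difference was -0.99, with a range between -1.87 and -0.48, and 86 members reached -0.7. In group 74 (2 HFD and 2 CD males) the median was -0.65, with a range between -2.19 and -0.17, and 44 members reached -0.7. The difference was the larger one in group 76 for 73 of the 95 members. The medians over all gene IDs that passed the filter were -0.003 in group 76 and 0.06 in group 74.

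The largest difference belonged to ENSRNOG00000050625, a short gene ID of 243 bases with few reads. Its level was 1.25, 1.26, 1.01 and 0.357 FPKM in the HFD males, against 3.00, 12.8, 2.48, 2.85 and 6.68 FPKM in the CD males. The CD males G74MC5 and G76MC5 stood well above the other 3, which were still above the highest HFD male. These values rested on 2 to 80 reads per male, and the difference was -1.84. Levels in the kept HFD females were 0, 0 and 0.153 FPKM, against 1.31, 1.62, 3.28 and 4.51 FPKM in the CD females. The excluded G73FHF3 had 3.40 FPKM, inside the range of the CD females, and G75FHF5 had 0.

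The most abundant member was ENSRNOG00000009153, with 40378 to 199921 reads per male. It measured 685, 1247, 1394 and 945 FPKM in the HFD males (mean 1068 ± 316, SD, n = 4), against 1402, 1706, 1504, 2045 and 2838 FPKM in the CD males (mean 1899 ± 580, SD, n = 5). The highest HFD male and the lowest CD male were nearly level, and the difference of -0.83 was close to the median of the list. In females its levels were spread more widely, with 50.2, 48.5 and 87.4 FPKM in the kept HFD females, against 88.6, 134, 674 and 718 FPKM in the CD females. The CD females split into a low pair, G73FC3 and G73FC4, and a high pair, G75FC4 and G75FC5, of which G75FC5 reached the level of the lowest HFD male. The excluded HFD females were at the ends of the female range, with 841 FPKM in G73FHF3 and 0.104 FPKM in G75FHF5.

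The member with the third largest male difference was a well-counted one, with at least 5842 reads in every male. It had 46.1, 51.5, 39.5 and 27.7 FPKM in the HFD males, against 164, 154, 55.7, 134 and 143 FPKM in the CD males. All CD males but G76MC3 lay far above the HFD males, and G76MC3 lay just over the highest of them. In the kept HFD females it had 4.81, 5.00 and 5.98 FPKM, against 5.95, 39.5, 30.7 and 81.7 FPKM in the CD females. Here G73FC3 lay among the kept HFD females and the other 3 CD females well above them. The excluded G73FHF3 and G75FHF5, at 32.7 and 49.5 FPKM, lay among those 3 CD females.

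**Figure D1:**
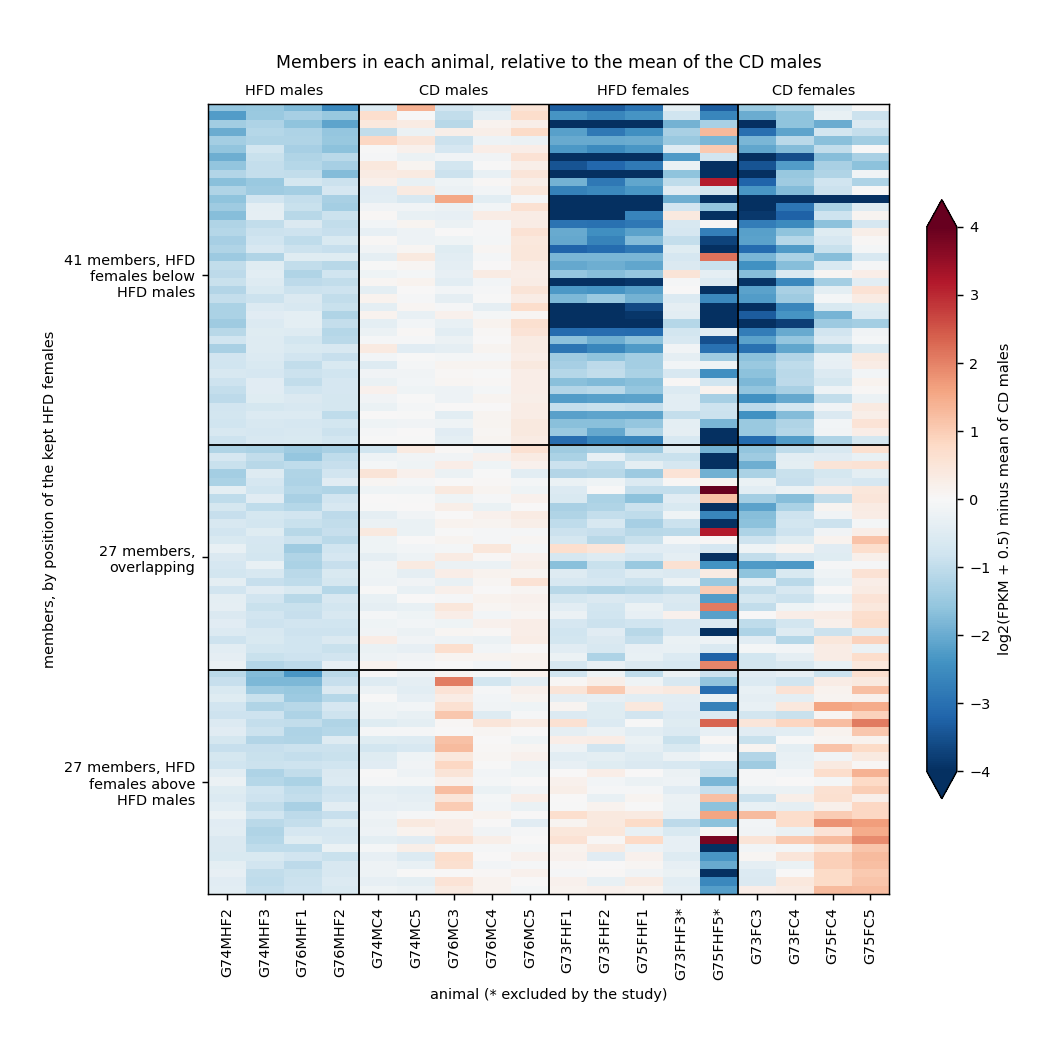
Each row is 1 of the 95 members and each column 1 animal, and the colour is log2(FPKM + 0.5) minus the mean of the 5 CD males, limited to the span from -4 to 4. All HFD males are blue because the rule chose them so, whereas the kept HFD females are darker blue than the HFD males in the upper 41 rows and near 0 in the lower 27, and G75FHF5 differs from all other columns.

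The members were divided into classes by the level that the HFD females reached (the plot of members by animal). In 41 members all 3 kept HFD females lay below all 4 HFD males, and these are called female-low below. In 27 members they lay above all HFD males (female-high), and in the other 27 the sexes overlapped on the HFD. The split was made after the values were seen and uses the same animals that it describes, so it was not tested. The female-low share was 43.2% of the members, against 13.9% of the 14265 gene IDs, and the female-high share was 28.4%, against 31.9%. The rule chose members for low HFD males, and the classes are set against these same males. The shares of all gene IDs are therefore not a like background.

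The female-low members held most of the abundant ones, with 13 of the 23 members at 100 FPKM or more in the CD males, and 14 of the 19 with a male difference of -1 or below. Their summed level was 3378 to 4846 FPKM in the HFD males, against 6556 to 10046 FPKM in the CD males. In the kept HFD females the sum was 875 to 1171 FPKM, against 1006, 1621, 3814 and 5553 FPKM in G73FC3, G73FC4, G75FC4 and G75FC5. In this sum the kept HFD females lay below all HFD males, as the choice of the class requires, and G73FC3 lay among the kept HFD females. On the log2 scale the mean of the CD females was also below the mean of the HFD males in 31 of the 41 members, and all 4 CD females were below all 5 CD males in 14. The shares of all gene IDs with these orders were not computed. The class was chosen for low females on the HFD, so these counts only describe it.

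In the female-low members, some males were often at an end of the range of their group. G76MC5 was the highest CD male in 32 of the 41, and G76MC3 was the lowest in 24 and the highest in 2. Among the HFD males, G74MHF2 was the lowest in 23. Their median level, set against the CD-male mean, was -1.21 in G74MHF2 and between -0.93 and -0.65 in the other 3 HFD males, against -0.25 in G76MC3 and between -0.11 and 0.32 in the other 4 CD males. These are differences on the log2(FPKM + 0.5) scale. For this class and the female-high one, how often these males lay at the ends over all gene IDs was not computed. The rule also used these same males.

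In the female-high members the ends of the range were often held by other males. G76MC3 was the highest CD male in 20 of the 27 and the lowest in none, and G76MC5 was the highest in 2. G74MHF2 was the highest HFD male in 17 and the lowest in none, and G76MHF1 was the lowest in 15. Set against the CD-male mean, their median level was -0.54 in G74MHF2, -0.98 in G74MHF3, -1.02 in G76MHF1 and -0.68 in G76MHF2, against -0.23, -0.28, 0.50, -0.03 and 0.01 in G74MC4, G74MC5, G76MC3, G76MC4 and G76MC5. By these medians G76MC3 stood above the other CD males in the female-high members and below them in the female-low ones. Without G76MC3, 134 gene IDs met the rule, 73 of them members. The part of its low number of detected gene IDs in this was not tested.

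In the kept HFD females, the female-high members were near the mean level of the CD males. Their median, on the same scale, was 0.11, -0.05 and -0.04 in the kept HFD females, against -0.29, -0.08, 0.61 and 1.06 in G73FC3, G73FC4, G75FC4 and G75FC5. The kept HFD females lay between the pairs, and the excluded G73FHF3 and G75FHF5, at -0.42 and -0.88, lay below all CD females. G75FC4 and G75FC5 are also the libraries with the fewest detected gene IDs, and the part of this in their high levels was not tested.

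**Figure D2:**
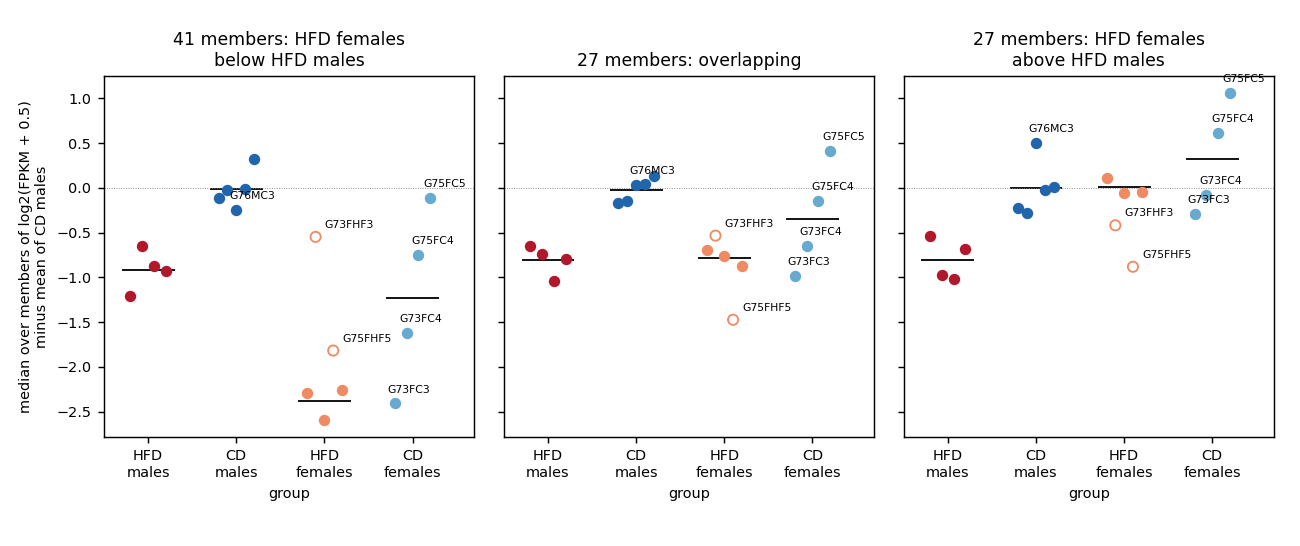
Each point is 1 animal, at the median over the members of log2(FPKM + 0.5) minus the mean of the CD males, with open circles for the HFD females that the study excluded and a line at the mean of the other animals of each group. In the 41 female-low members the kept HFD females sit between -2.60 and -2.26, and in the 27 female-high members between -0.05 and 0.11, and the CD females spread widely in all 3 panels.

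The most abundant female-high member had 606, 460.0, 309.9 and 386 FPKM in the HFD males, against 844, 686, 1055, 799 and 925 FPKM in the CD males. Its male difference was -0.996, of which group 76 showed -1.41 and group 74 showed -0.53. In females it had 669.6, 683 and 631 FPKM in the kept HFD females, against 666, 650.0, 919 and 963 FPKM in the CD females. The HFD females were level with G73FC3 and G73FC4, and only G75FC4 and G75FC5 lay higher. The 2 excluded HFD females, at 635 and 716 FPKM, were close to the kept ones.

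The female-high member with the largest male difference had 4.41, 2.59, 1.54 and 4.38 FPKM in the HFD males, against 9.98, 8.39, 10.4, 9.60 and 10.8 FPKM in the CD males. The CD males were closely grouped and the HFD males were all under the level of 5 FPKM. In females the groups overlapped, with 5.38, 8.54 and 4.56 FPKM in the kept HFD females, against 7.05, 7.67, 5.23 and 15.5 FPKM in the CD females. G73FHF3 and G75FHF5, at 8.30 and 5.21 FPKM, were inside the range of the kept HFD females.

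Among the 27 overlapping members, the most abundant had 394, 491, 440 and 308 FPKM in the HFD males, against 669.8, 551, 776, 687 and 709 FPKM in the CD males. The kept HFD females were tightly grouped at 312, 295 and 310.5 FPKM, against 341, 429, 675 and 846 FPKM in the CD females. No kept HFD female reached the lowest CD female, although that distance was small, but the excluded G73FHF3 and G75FHF5 did, with 351 and 1373 FPKM. The overlapping member with the largest male difference had 4.58, 4.37, 3.90 and 4.28 FPKM in the HFD males, against 6.26, 14.5, 11.5, 9.61 and 17.5 FPKM in the CD males. In this member the kept HFD females had 3.84, 4.16 and 3.81 FPKM, against 3.40, 5.27, 6.95 and 17.7 FPKM in the CD females. The HFD males and the kept HFD females were nearly level, and G73FC3 was the lowest of the kept females. The excluded HFD females were not at that level, with 7.97 FPKM in G73FHF3 and 2.65 FPKM in G75FHF5.

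**Figure D3:**
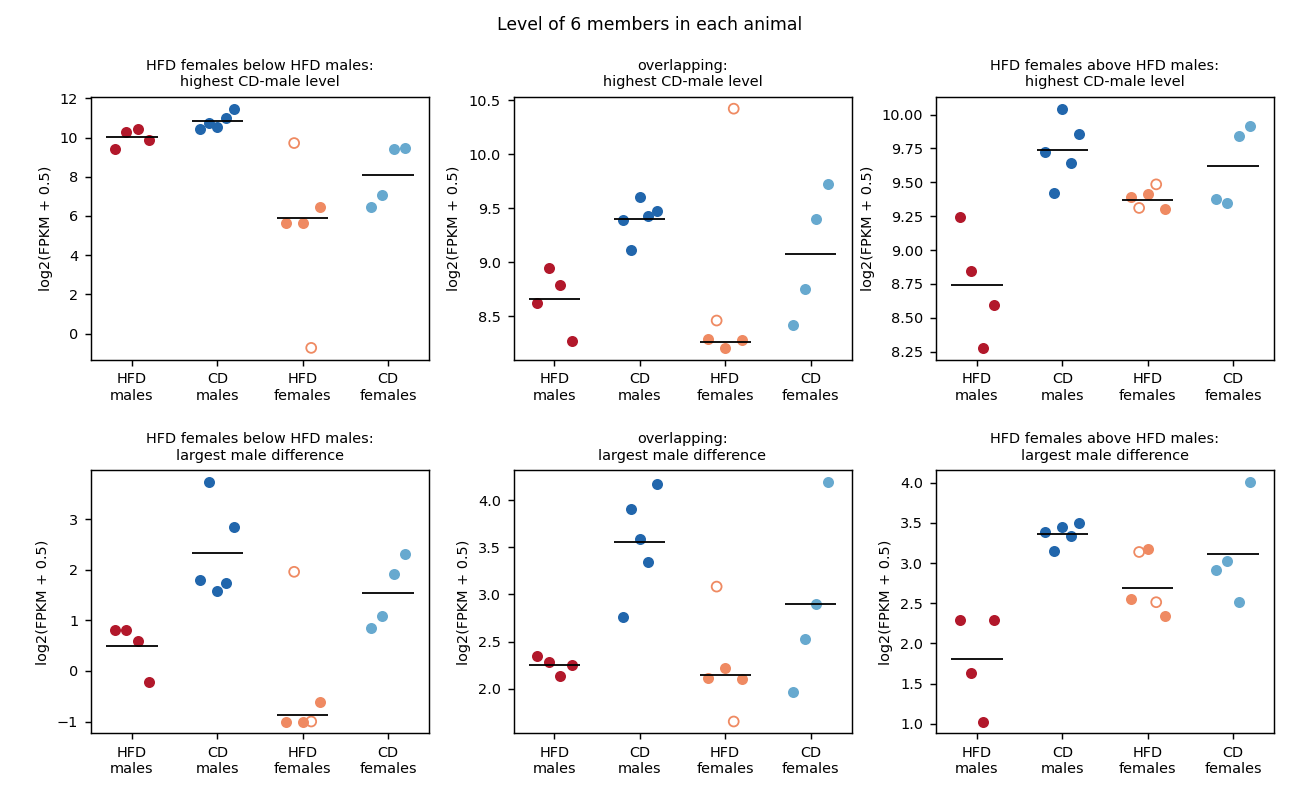
Points are single animals on the log2(FPKM + 0.5) scale, lines are group means without the excluded HFD females, and open circles are the excluded HFD females. The upper panels show the most abundant member and the lower panels the member with the largest male difference among the 41 female-low, 27 overlapping and 27 female-high members, and in each panel the HFD males lie below the CD males, as the rule requires.

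Whether the members were also lower on the HFD in females was tested with limma on log2(FPKM + 0.5) in the 3 kept HFD females vs. the 4 CD females (two-sided). Calls needed an absolute log2 fold change over 1 and an adjusted p under 0.05 (Benjamini-Hochberg, over all gene IDs tested). Of the 95 members, 92 passed the filter of 0.5 FPKM in 3 or more of the 7 females, and none was called. None of the 14186 gene IDs tested was called lower (0.0%) or higher (0.0%), and limma-voom on recovered reads also called none. At an unadjusted p under 0.05, 17 of the 92 members were lower (18.5%) and 0 were higher, against 1.27% of all gene IDs lower and 2.38% higher. Limma-voom put 14 members under that p, all lower, against 1.0% of all gene IDs lower and 5.05% higher.

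The fitted differences of the members leaned to lower levels on the HFD, but this rested on 2 CD females. The median female log2 fold change was -0.60 over the 92 members and 0.32 over all 14186 gene IDs. It was below 0 in 87 members (94.6%), against 32.4% of all gene IDs. Without G75FC4 and G75FC5, 87 members could be tested, their median was 0.01, and 43 were below 0. Over all gene IDs the median was then 0.04, with 42.9% below 0. At an unadjusted p under 0.05, 7 members were then lower and 4 higher, against 1.26% and 3.20% of the 13950 gene IDs tested. With G73FHF3 added to the HFD females, the median of 93 members was -0.45, and 84 were below 0, against 34.4% of all gene IDs. At an unadjusted p under 0.05, 9 members were then lower and 0 higher, against 1.22% and 3.05% of all gene IDs, and none was called.

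The split by the group number of the codes falls on the same animals, since G75FC4 and G75FC5 are the CD females of group 75. It is therefore not separate evidence of that dependence. In group 75, the HFD female G75FHF1 was compared with G75FC4 and G75FC5, and the median difference of the 95 members was -1.26, with 94 below 0. In group 73, G73FHF1 and G73FHF2 were compared with G73FC3 and G73FC4, and the median was -0.04, with 50 below 0. Over all gene IDs tested in the females the medians were 0.54 in group 75, with 35.4% below 0, and 0.05 in group 73, with 42.2% below 0. In the fit with the code's group number as a block, the median of the 92 members was -0.50, with 85 below 0, against 0.27 over all gene IDs. At an unadjusted p under 0.05 by limma, 26 members were then lower and 0 higher, against 227 and 508 of all 14186 gene IDs. None was called. By its title G75FC5 belongs to group 73, and with the title's group number as a block the median of the 92 members was -0.63.

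**Figure D4:**
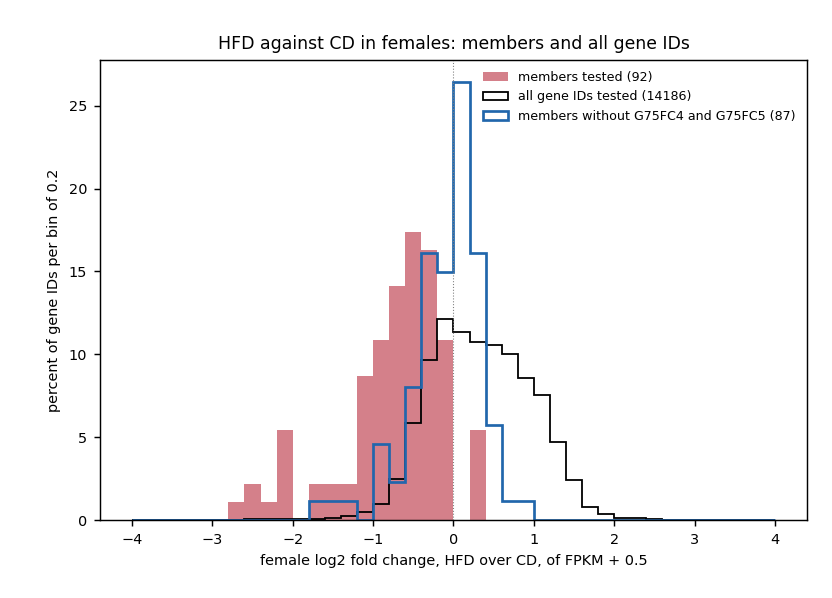
The x axis is the log2 fold change of FPKM + 0.5, HFD over CD, in females, and the y axis the percent of gene IDs in each bin of 0.2. The 92 members tested (filled) centre on -0.60 and all 14186 gene IDs (black line) on 0.32, and without G75FC4 and G75FC5 the members (blue line) centre on 0.01.

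Within the CD females, the levels of most members went with the pair of animals. G75FC4 and G75FC5 were both above G73FC3 and G73FC4 in 81 of the 95 members (85.3%), against 25.7% of all gene IDs tested in females. They were both above all 3 kept HFD females in 85 members (89.5%), against 22.7% of all. G75FC5 was the highest of the 7 kept females in 77 members, and G73FC3 the lowest in 41. G73FC3 lay below the mean of the kept HFD females in 57 members.

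The kept HFD females lay wholly below the CD females in 16 of the 92 members tested (17.4%) and wholly above them in 0, against 2.07% of all gene IDs lower and 5.82% higher. Counted over all 95 members the number was 17, of which 12 were female-low, 3 overlapping and 2 female-high. Without G73FC3 the number was 54 of 91 tested, against 7.65% of all gene IDs. With G73FHF3 added to the HFD females it was 3 of 93, against 0.816% of all. Without G75FC4 and G75FC5 it was 14 lower and 6 higher of 87, against 7.69% and 12.1% of all gene IDs.

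The lowest unadjusted p among the members in females was that of ENSRNOG00000050625, whose levels are given above. Its log2 fold change was -2.42 (SE 0.41, adjusted p = 0.48 by limma), and all 3 kept HFD females lay below all 4 CD females. Because 2 of these HFD females were at 0, the size of the change depends on the pseudocount, and it was -4.18 with 0.1 and -1.72 with 1. Its adjusted p over the alternatives lay between 0.15 and 0.77, and without G75FC4 and G75FC5 it did not pass the filter. For ENSRNOG00000009153 the log2 fold change was -2.20 (SE 0.77, adjusted p = 0.48 by limma). Without G75FC4 and G75FC5 it was -0.86 (adjusted p = 0.98), and its adjusted p over the alternatives lay between 0.217 and 0.998. The 17 members with an unadjusted p under 0.05 had log2 fold changes between -2.70 and -0.77, and 14 of them were female-low. The 5 members with a value above 0 lay between 0.20 and 0.28.

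Over the 7 kept females most members varied together, and less so with the excluded ones. The median Pearson r between 2 members was 0.804, and 96.5% of the pairs were above 0. Over all gene IDs tested the median was 0.135, with 54.3% of the pairs above 0. Over all 9 females the median was 0.472 for the members, with 77.7% of the pairs above 0, and 0.101 for all gene IDs. The points of each pair share the same libraries, and G75FC4 and G75FC5 lie apart in most members, so these values are a description.

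The excluded HFD females differed from the kept ones in the members. G73FHF3 was above all 3 kept HFD females in 57 members of 95, against 20.9% of all gene IDs, and this held for 41 of 41 female-low, 15 of 27 overlapping and 1 of 27 female-high members. It was below them in 17 of the 27 female-high members. The classes were set by where the kept HFD females lay, so the order of these counts over the classes is partly built in. The share of all gene IDs is no background for single classes. In 36 of the 95 members G73FHF3 lay inside the range of the HFD males, and in 26 inside the range of the CD males. In ENSRNOG00000009153 it had 841 FPKM, inside the range of the HFD males, against 48.5 to 87.4 FPKM in the kept HFD females. The summed level of the 41 female-low members was 4508 FPKM in G73FHF3, within the range of the HFD males.

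G75FHF5 was at an end of the range in many members. It was the lowest of all 18 animals in 39 members and the highest in 15. In 9 members it was under 0.5 FPKM and every other animal was at 0.5 FPKM or more. The same counts over all gene IDs were not computed, so they may not be particular to the members. ENSRNOG00000009153 had 0.104 FPKM in G75FHF5, against 48.5 FPKM or more in the other 17 animals. With both excluded animals added, the median female log2 fold change of the 94 members tested was -0.54, with 79 below 0, against 37.3% of all gene IDs, and 2 members had all HFD females below all CD females, against 0.529% of all gene IDs.

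The level of the members was high relative to the rest of the table. Their mean level in the CD males had a median of 27.5 FPKM, with a range between 0.894 and 1899 FPKM, and the median over all gene IDs that passed the filter was 7.56 FPKM. The level is part of what the rule used, since low gene IDs seldom pass it. Their median length, recovered from the FPKM, was 1976 bases, against 1990 bases for all. In every male 76 members had 100 reads or more, and 5 had under 10 reads in some male.

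As a share of all FPKM, the members made up 0.924% to 1.11% in the HFD males, against 1.64% to 2.28% in the CD males. In the kept HFD females they made up 0.653% to 0.681%, against 0.56%, 0.841%, 1.29% and 1.73% in G73FC3, G73FC4, G75FC4 and G75FC5. The kept HFD females were again tightly grouped, and the CD females reached from below them to the level of the CD males. The excluded G73FHF3 and G75FHF5 lay above the kept HFD females, at 1.15% and 0.989%. The 5 most abundant members held 39.6% to 47.5% of this sum in the HFD males, against 43.1% to 48.8% in the CD males, and 24.8% to 27.8% in the kept HFD females, against 26.7% to 32.2% in the CD females. The number of members at 0.5 FPKM or more was 89 to 93 in the HFD males, against 95 in every CD male, and 85 to 87 in the kept HFD females, against 87 to 93 in the CD females. Of the 95 members, 72 were at 0.5 FPKM or more in all 18 animals.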

How the data were processed

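RNA of MRPVAT from 18 rats was analysed. The authors aligned reads by STAR 2.5, obtained counts per gene by HTSeq 0.6.1, tested them by DESeq2 1.24.0 and deposited FPKM per gene ID. The genome build, the annotation and the FPKM formula were not given in the sources used here. Reads and gene lengths were recovered from the steps between low FPKM values. All 22851 gene IDs above 0 came out as whole reads (100.0%, tolerance 1e-06 reads plus a small share of the count). The other 10032 gene IDs were at 0 in all animals. Of the recovered lengths, 82.01% lay within 0.02 of a whole number. In simulated data, the reads of 99.16% of the gene IDs above 0 were recovered.

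Differences are on the log2(FPKM + 0.5) scale, which understates the change of low genes. FPKM are not counts, so females were compared with limma 3.58.1 (R 4.3.3), with its variance trend on mean level, and limma-voom on the recovered reads was an alternative. The script was tested on simulated data. Summaries and plots used Python 3.11.15, numpy 2.4.6, pandas 2.3.3 and matplotlib 3.10.9. Labels give separate animals as replicates.

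The members and lists were chosen with earlier results of these data known. Named genes were to be members with a symbol that are in a list, lead in difference or level, or have the lowest p in females. Without symbols the lists could not be matched. Therefore 2 IDs are printed, the members with the largest male difference and the highest level, and the leading members of each level class are described without a name. These classes, and the block on the title's group number, were chosen after seeing the data. Alternatives were other pseudocounts, filters, scalings, weights, blocks, and animals left out or added.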

Additional observations from a re-analysis of the deposited data

Results flagged for a closer look

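In groups of 4 or 5 animals, the distance of the extreme animal to its neighbour was set against the whole range of the group (Dixon's ratio, critical values 0.829 for 4 and 0.710 for 5). It was computed for the library medians of the members, their share of all FPKM and the 6 members plotted singly. Chance passes it in about 5% of groups, and several groups were screened for each measure, so a few passes can come by chance. In the 5 HFD females, G73FHF3 stood apart in ENSRNOG00000050625 with a ratio of 0.87, at 3.40 FPKM vs. 0 to 0.153 FPKM in the other 4. G75FHF5 stood apart in the most abundant of the overlapping members with a ratio of 0.886, at 1373 FPKM vs. 295 to 351 FPKM. The study excluded both animals.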

How the results depend on the processing

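The count of gene IDs that met the rule was 95, and 146 with median-of-ratios scaling, 259 with quantile normalization and 19 with a limit of 1 in place of 0.7. Of the 95 members, 89, 70 and 19 met the rule in these settings. Leaving out 1 male at a time gave 85 to 307, the highest without G74MHF2, and 168 without G74MC4 and 155 without G74MC5. All 95 members kept a difference below 0 in males under these scalings, which their choice in the same males made likely. The median over all gene IDs was 0.01 as deposited, -0.03 with median-of-ratios scaling and -0.10 with quantile normalization. In females no gene ID was called, except 1 with all 4 groups of kept animals fitted together and 4 with sample quality weights, and no member was called in any of the 20 alternatives. The median female log2 fold change of the members was 0.0065 without G75FC4 and G75FC5 and stayed below 0 in the other 19 alternatives. It was -0.11 with sample quality weights, -0.50 with the group number of the code as a block and -0.87 to -0.34 with 1 female left out at a time. With median-of-ratios scaling it was -0.89, where the median over all gene IDs was 0.06 and 320 gene IDs were lower and 210 higher at an unadjusted p under 0.05, against 180 and 337 as deposited. The members below all CD females numbered 16 of 92, and 3 with G73FHF3 added, 2 with both excluded females added, and 15 to 54 with 1 female left out at a time. The shares of all gene IDs beside these were 2.07%, 0.816%, 0.529% and 2.30% to 7.65%. The cause of these changes was not tested. No paired analysis was possible because animal numbers do not mark shared animals or litters across the diets. With 3 vs. 4 females, calls depend on few animals, and intervals and tests cover the spread between these animals only.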
